A study of Caenorhabditis elegans with 20 samples.

Results

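The genes described here are ant-1.1, ant-1.3 and mai-1 of the nematode Caenorhabditis elegans, which code for mitochondrial ADP/ATP carriers (ant-1.1 and ant-1.3) and for a homolog of the inhibitor of ATP synthase (mai-1). They were taken as every array feature to which the platform annotation gives these symbols. That gave 4 of the 23232 features, for 3 of the 16378 genes with a feature of their own: 1 for ant-1.1 (T27E9.1), 2 for ant-1.3 (K01H12.2) and 1 for mai-1 (K10B3.9). The genes were picked with their signal in these same samples already known, so their levels and differences are given as a description. Where 1 of them is said to pass the threshold or to be called, this only places it among all features. It is no test of these genes. Of the 4 features, 3 passed the low-signal filter, and the other, the second feature of ant-1.3, was too dim to be tested.

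RNA from 20 samples of mixed-stage worms was hybridised to spotted microarrays to find mRNAs that come down with AIN-1 and AIN-2. The AIN-1 immunoprecipitate (IP, n = 3), made with antibody to AIN-1, and its control, the Preimmune IP made with preimmune serum (n = 3), came from wild-type N2 worms. The AIN-2::GFP IP (n = 3) came from 1 line, A, that carries AIN-2::GFP as an integrated single copy, and the GFP IP (n = 3) from a line made by injection that expresses GFP alone from the ain-2 promoter. Total lysate RNA was measured in the AIN-2::GFP line (n = 3), in the promoter GFP line (n = 3) and in N2 (n = 2), so that both kinds of transgenic worm have a total RNA profile of their own and the AIN-1 and Preimmune IPs share that of N2.

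ADP/ATP carriers sit in the inner mitochondrial membrane and exchange ATP made in the matrix for ADP from the cytosol. ATP synthase makes that ATP from the proton gradient of the respiratory chain, and the small inhibitor protein IF1 binds the enzyme and stops it from running in reverse when the gradient fails. The worm has a pair of IF1 homologs, MAI-2 in mitochondria and MAI-1, which lacks a mitochondrial targeting sequence. AIN-1 and AIN-2 belong to the GW182 family, the proteins that link microRNA-loaded Argonautes to the machinery that silences mRNAs, and their IPs are used to list mRNAs under microRNA control.

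The deposited values are background-subtracted spot intensities divided by the mean of their sample, and they are called sample means below. The control IPs were dim, with mean signals of 9 to 47 scanner units for Preimmune and 12 to 370 for GFP, against 629 to 907 for AIN-1, 329 to 729 for AIN-2::GFP and 241 to 800 over the 8 total RNA samples. A background limit was set in each sample at the median plus 2 median absolute deviations of 1078 chemoreceptor features, which are expected to be dark in most cells. It left 10.2% to 28.2% of gene features above it in Preimmune samples and 45.6% to 62.4% in the total RNA samples. The mRNA of the precipitated protein, ain-1, had 4.04 to 4.32 sample means in AIN-1 IP samples, 0.333 to 1.45 in Preimmune samples and 0.944 to 1.37 in N2 total RNA. For comparisons the values were quantile normalised, so that all samples share 1 distribution, and put on the log2 scale. In RNA from whole worms, fewer cells of a type and less RNA per cell cannot be told apart.

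The spot for ant-1.1, which codes for an ADP/ATP carrier, was above the background limit in all 20 samples. It had 14.7, 18.1 and 13.8 sample means in the AIN-1 IP replicates and 3.78, 14.3 and 17.02 with preimmune serum, against 64.3 and 76.1 in N2 total RNA. The 2 N2 samples were the highest of all 20, and the AIN-1 and Preimmune samples overlapped, with Preimmune replicate 1, at 34 scanner units, the lowest of all. The AIN-2::GFP line gave ant-1.1 values of 26.4, 27.1 and 13.9 sample means in the IP and 30.6, 48.8 and 23.1 in total RNA. The promoter GFP line gave 15.9, 17.7 and 30.2 sample means in its IP, against 35.8, 27.1 and 31.3 in its total RNA. IP and total RNA overlapped in both transgenic lines, and every transgenic total RNA sample was below both N2 samples. In N2 replicate 2 the ant-1.1 spot was the brightest of its array, at 60881 scanner units, and in N2 replicate 1 it ranked 6 among gene features. The quantile step gives the brightest spot of any sample the mean of all samples' brightest spots, so these replicates, close in sample means, lay apart at 8.96 and 6.96 on the normalised log2 scale.

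Normalised, ant-1.1 averaged 3.68 ± 0.2 in AIN-1, 4.03 ± 0.35 in Preimmune, 4.34 ± 0.56 in AIN-2::GFP and 4.43 ± 0.55 in GFP IPs (log2, SD, n = 3 each). It averaged 5.17 ± 0.56 in AIN-2::GFP total RNA and 4.90 ± 0.17 in promoter GFP total RNA (SD, n = 3 each), and 7.96 ± 1.42 in N2 total RNA (SD, n = 2). From the highest group down, the order was N2, AIN-2::GFP and promoter GFP total RNA, then the GFP, AIN-2::GFP, Preimmune and AIN-1 IPs. Only N2 was separated from its neighbour in that order, and each of the other neighbours overlapped.

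The brighter ant-1.3 feature was also above the limit in all 20 samples. It had 1.12, 0.413 and 0.922 sample means in the AIN-1 IP replicates and 0.778, 1.05 and 1.28 with preimmune serum, against 36.9 and 28.8 in N2 total RNA. The Preimmune values rest on spots of 7, 42 and 60 scanner units. Both N2 samples were the highest of all 20, and on this scale the AIN-1 and Preimmune samples overlapped. For ant-1.3 the AIN-2::GFP line gave 4.42, 2.58 and 2.27 sample means in the IP and 13.1, 15.6 and 9.31 in total RNA. The promoter GFP line gave 3.25, 1.83 and 2.42 sample means in its IP, against 7.19, 4.32 and 7.39 in its total RNA. Every IP sample was below every total RNA sample of its own line in these values, although after normalisation the highest GFP IP sample, at 1.98 on the log2 scale, passed the lowest total RNA sample of its line, at 1.96.

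On the normalised log2 scale ant-1.3 formed steps. It averaged -0.22 ± 0.59 in AIN-1, 0.76 ± 0.41 in Preimmune, 1.47 ± 0.4 in AIN-2::GFP and 1.41 ± 0.55 in GFP IPs (SD, n = 3 each). Total RNA averaged 3.49 ± 0.43 in the AIN-2::GFP line and 2.50 ± 0.47 in the promoter GFP line (SD, n = 3 each), against 5.28 ± 0.45 in N2 (SD, n = 2). In the order of levels neighbouring groups did not overlap, except that the GFP IP overlapped both the AIN-2::GFP IP and the Preimmune IP. Some gaps were narrow. The lowest Preimmune sample was at 0.3 and the highest AIN-1 sample at 0.29, and in sample means these groups overlapped. The lowest promoter GFP total RNA sample was at 1.96 and the highest AIN-2::GFP IP sample at 1.92. AIN-1 lay below Preimmune without overlap for 6.72% of all features. Shares for all the other gaps were not computed. The second feature annotated as ant-1.3 showed none of this, with -0.109 to 0.111 sample means and 0 of 20 samples above the limit, so all values of the gene rest on 1 spot.

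The mai-1 spot was dim, and its values sit near the background limit outside N2. It had 0.0154, 0.00477 and 0.0272 sample means in the AIN-1 IP replicates and 0, 0.075 and 0.0426 with preimmune serum, against 0.532 and 0.702 in N2 total RNA. None of the AIN-1 or Preimmune samples was above its limit, and both N2 samples were. For mai-1 the AIN-2::GFP line gave 0.102, 0.0881 and 0.0703 sample means in the IP (2 of 3 above the limit) and 0.103, 0.0926 and 0.16 in total RNA (3 of 3 above). The promoter GFP line gave 0.0432, 0.13 and 0 sample means in its IP (1 of 3 above) and 0.0547, 0.0664 and 0.1 in its total RNA (1 of 3 above). IP and total RNA overlapped in both lines, and both N2 samples stood above all 18 others.

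Normalised, mai-1 averaged -4.96 ± 0.74 in AIN-1, -4.24 ± 0.31 in Preimmune, -3.24 ± 0.24 in AIN-2::GFP and -4.85 ± 1.01 in GFP IPs (log2, SD, n = 3 each). It averaged -3.27 ± 0.36 in AIN-2::GFP total RNA and -3.69 ± 0.69 in promoter GFP total RNA (SD, n = 3 each), and -1.2 ± 0.3 in N2 total RNA (SD, n = 2). N2 was the only group that did not overlap its neighbour in the order of levels.

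**Figure D1:**
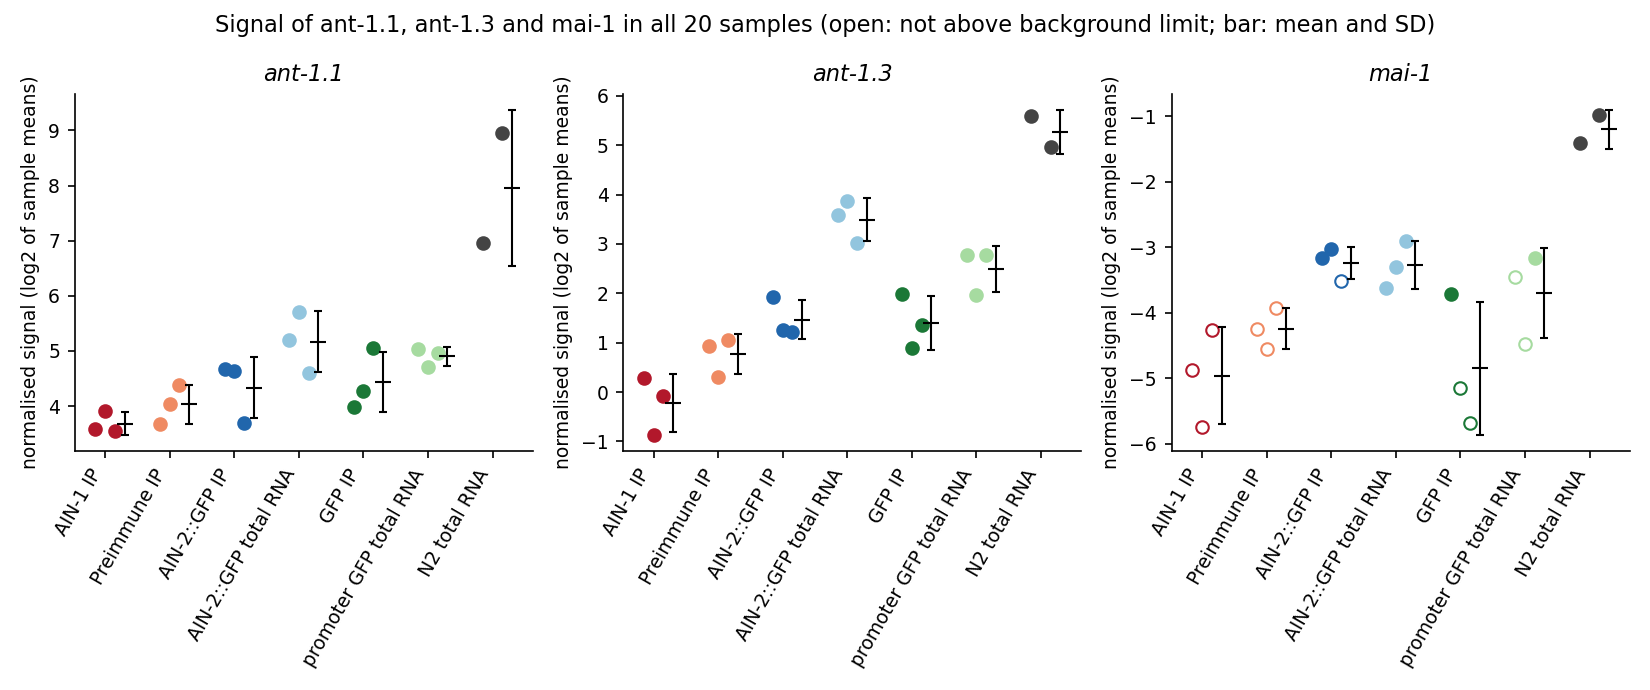
Normalised signal (log2 of sample means, y axis) of ant-1.1, ant-1.3 and mai-1 in each of the 20 samples, by group; bars give the group mean and SD, and open points are not above the background limit. Both N2 total RNA samples are the highest of each panel, ant-1.3 descends from N2 over the transgenic total RNA to the IPs, and the AIN-1 and Preimmune points of mai-1 are all open.

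AIN-1 and Preimmune IPs were each set against N2 total RNA in a limma model of all 12222 features that passed the filter, with a mean for each group and a term for the dye, so that a difference need not equal that of the raw means. In the AIN-1 IP all 3 genes were lower than in N2 total RNA, with log2 differences of -4.19 ± 0.53 for ant-1.1, -5.47 ± 0.52 for ant-1.3 and -3.73 ± 0.6 for mai-1 (SE). All 3 passed the Benjamini-Hochberg threshold of 0.05, where 5.65% of all tested features were lower and 6.1% higher, and all 3 were lower with no overlap, as were 31% of features. Since the genes were chosen on such values, these counts are a description. For mai-1, which no AIN-1 IP sample measured above background, the AIN-1 IP was at least 5.52-fold lower than N2 total RNA, counting each dim sample at its background limit. The size for ant-1.1 depends on the scaling: with values left in sample means, without the quantile step, the difference was -2.14. It was -5.1 without N2 replicate 1 and -3.43 without N2 replicate 2, the call being kept in each case.

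Against the same 2 N2 samples, the Preimmune IP differed by -4.02 ± 0.53 for ant-1.1, -4.54 ± 0.52 for ant-1.3 and -3.08 ± 0.6 for mai-1 (log2, SE). All 3 were again past the threshold on the lower side, where 9.17% of features were (3.89% were higher), and without overlap, as were 25.3%. The mai-1 call was lost without N2 replicate 2, at -2.96. The ant-1.1 difference was -2.89 in sample means and -1.97 after cyclic loess, and without Preimmune IP replicate 1 it was -3.17. For mai-1 no fold can be given, since the Preimmune background limits, at 0.211 to 0.659 sample means, reached the level of the N2 samples. Mean spot brightness moved with this comparison, at 9 to 47 scanner units in Preimmune samples and 472 and 800 in N2 total RNA, and its part in these values was not tested.

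The AIN-1 IP was then set against its preimmune control. The log2 differences were -0.17 ± 0.48 for ant-1.1 and -0.93 ± 0.47 for ant-1.3 (SE), beside a median of 0.42 over all features. For mai-1 no difference is given, since no sample of either IP was above its background limit. None of the 3 was past the threshold, against 2.36% of features on the lower and 9.44% on the higher side. The ant-1.3 values did not overlap once normalised, as was so for 6.72% of features on the lower side, although the nearest samples had 0.29 in AIN-1 and 0.3 in Preimmune IPs. After cyclic loess the ant-1.3 difference was -1.78 and passed the threshold. The AIN-1 to N2 and Preimmune to N2 comparisons share their N2 samples.

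ant-1.3 was lower in the AIN-2::GFP IP when set against total RNA of its line, with a difference of -2.03 ± 0.47, while ant-1.1 differed by -0.83 ± 0.47 and mai-1 by 0.04 ± 0.54 (log2, SE). ant-1.3 alone of the 3 passed the threshold, where 2.72% of features were lower and 2.79% higher, and it alone did not overlap, as was so for 25.7% of features on the lower side. That call for ant-1.3 was lost when AIN-2::GFP IP replicate 2 or 3, or total RNA replicate 1 or 2, was left out, with differences of -1.84, -1.92, -1.95 and -1.87. In the promoter GFP line the control IP differed from total RNA by -0.47 ± 0.47 for ant-1.1, -1.09 ± 0.47 for ant-1.3 and -1.16 ± 0.54 for mai-1. None was past the threshold, and 0.0164% of features were called lower. The mai-1 value rests on dim spots, with 1 of 3 samples above the background limit in each of these groups.

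The enrichment in the AIN-2::GFP IP minus that in the GFP IP was -0.37 ± 0.66 for ant-1.1, -0.94 ± 0.66 for ant-1.3 and 1.19 ± 0.76 for mai-1 (log2, SE). None was past the threshold, and 0.0245% of features were in either direction. GFP IP replicates 2 and 3, with mean signals of 46 and 12 scanner units, were much dimmer than replicate 1 with 370, and their part in these values was not tested. For mai-1 the GFP IP and promoter GFP total RNA each had 1 of 3 samples above the background limit, so its size cannot be read closely.

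Without any IP, total RNA of the transgenic worms was lower than that of N2 for all 3 genes. The mean of both transgenic groups minus N2 was -2.92 ± 0.47 for ant-1.1, -2.28 ± 0.47 for ant-1.3 and -2.28 ± 0.54 for mai-1 (log2, SE), beside a median of 0.16 over all features. In these terms ant-1.1 was 7.57-fold, ant-1.3 4.85-fold and mai-1 4.87-fold lower, and for each gene the 6 transgenic samples lay below both N2 samples, as was so for 18.4% of features. ant-1.1 and ant-1.3 were past the threshold, where 0.655% of features were lower, and mai-1 was not. In sample means the differences were -1.13 for ant-1.1 and -1.90 for ant-1.3, and after cyclic loess -1.70 and -2.12, none of them past the threshold. Without N2 replicate 2 the ant-1.1 difference was -2.13 and no longer called, and ant-1.3 lost its call in 7 of the 8 fits that left out 1 sample, with -2.74 to -1.84 over all 8.

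The summed signals of muscle, sperm, hypodermis and germline markers did not overlap between transgenic and N2 total RNA, while intestine and neuron sums did. The sum over 10 intestine genes was 251.9 to 509.6 sample means in AIN-2::GFP and 369.9 to 571.9 in promoter GFP total RNA, against 397.3 to 407.2 in N2. For 6 neuron genes it was 51.64 to 58.94 and 56.16 to 65.55, against 52.21 to 63.85 in N2. Gene by gene the lists were less distinct. Below 0 in transgenic minus N2 were 8 of 10 intestine genes (median -0.56) and 4 of 6 tested hypodermis genes (median -0.65). In both lists 0 genes were called. Of the 6 neuron genes (median -0.35) 1 was called higher, where 0.385% of all features were. The summed signal of 11 muscle genes was 22.03 to 27.7 sample means in AIN-2::GFP total RNA and 24.9 to 31.7 in promoter GFP total RNA, against 52.7 to 53.2 in N2, and 1 of the 11 genes fell in transgenic worms, where 0.655% of all features did. The sum over 21 sperm genes was 59.2 to 135.6 in AIN-2::GFP and 99.1 to 176.2 in promoter GFP total RNA, against 14.6 to 18.1 in N2, with 3 of 20 tested genes up in transgenic worms, where 0.385% of all features were, and 4 of the 21 above the limit in neither N2 sample. The sum over 7 hypodermis genes was 14.4 to 20.4 and 14.4 to 19.2 in the transgenic groups, against 25.8 to 30.4 in N2. The sum over 11 germline genes was 56 to 62.7 in AIN-2::GFP and 53.44 to 64.43 in promoter GFP total RNA, against 37.9 to 40.2 in N2, with 0 of the 11 genes past the test. What these shifts in tissue markers contribute to the lower carrier and inhibitor signals was not tested.

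Between the transgenic lines, AIN-2::GFP minus promoter GFP total RNA was 0.45 ± 0.48 for ant-1.1, 1.05 ± 0.47 for ant-1.3 and 0.50 ± 0.55 for mai-1 (log2, SE). None was past the threshold, and 0.00818% of features were in either direction. The ant-1.3 values of the 2 lines did not overlap, as was so for 4.1% of features on the higher side.

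**Figure D2:**
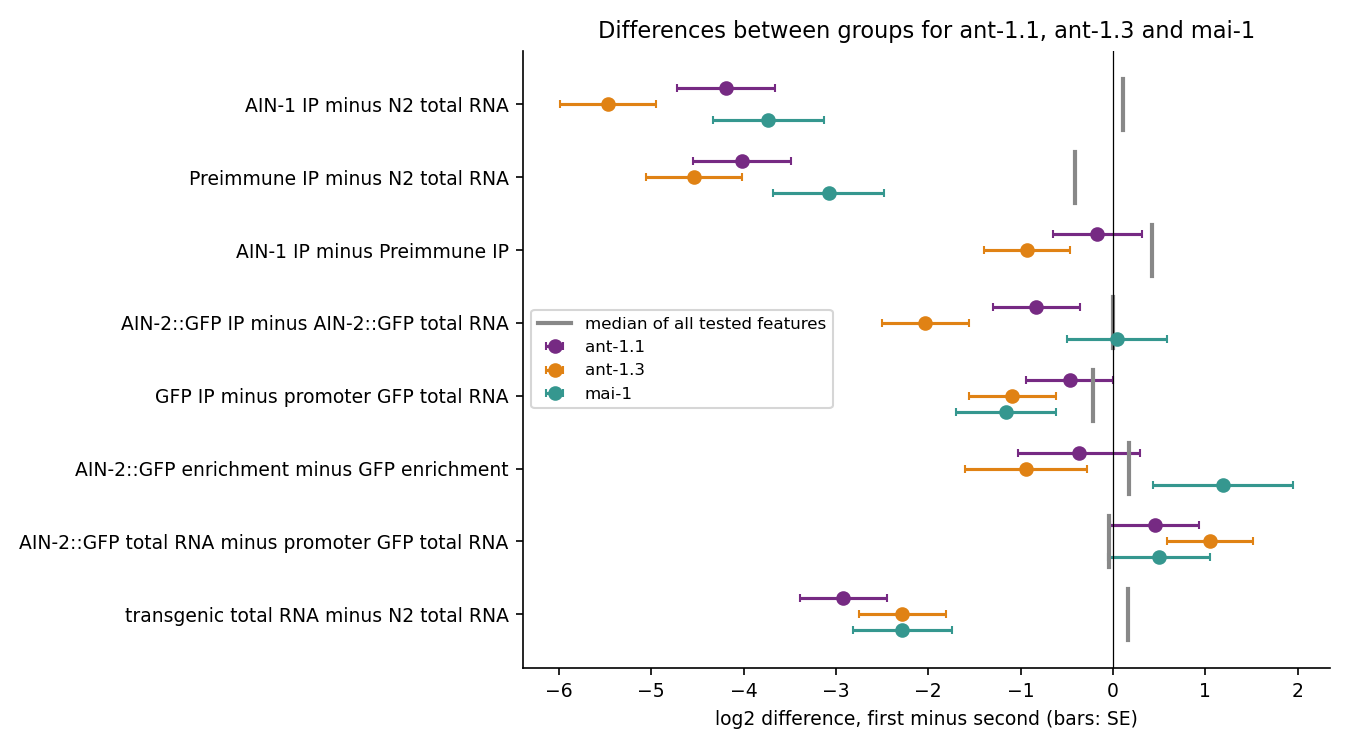
Log2 differences, first group minus second, with SE (x axis), of the 3 genes in the 8 comparisons (y axis), with the median of all tested features as a grey bar. All 3 genes lie below -3 in both IPs set against N2 total RNA and below -2 in transgenic against N2 total RNA. The mai-1 points of these IPs rest on IP spots below the background limit, and for Preimmune no fold can be given. In the AIN-2::GFP line ant-1.3 is at -2.03 and mai-1 at 0.04. AIN-1 against Preimmune IP has no mai-1 point, since both are below background.

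The design text of the study ranks genes within each IP by the ratio of IP signal to the averaged total RNA of the same strain, as a percentile of all genes. By that measure mai-1 stood at 7.80, 7.78 and 7.82 in the AIN-1 IP replicates and ant-1.3 at 8.59, 8.29 and 6.56, near the bottom of 15911 ranked features. The mai-1 ranks come from signals below the background limit. ant-1.1 was less extreme, at 29.8, 38.3 and 23.2. In the Preimmune IP the ranks were wider apart, at 51.9, 24.6 and 43.7 for ant-1.1, 50.7, 19.3 and 32.5 for ant-1.3, and 43.5, 21.6 and 33.5 for mai-1. These ranks cannot be set against the AIN-1 ranks, because 18.8% to 50.3% of the ranked features were at or below 0 in Preimmune samples, against 4.69% to 7% in AIN-1 samples, so that a ratio of 0 already ranked at 43.5 in Preimmune replicate 1. The ratios themselves overlapped for ant-1.3, at 0.0342, 0.0126 and 0.0281 of N2 total RNA in the AIN-1 IP and 0.0237, 0.032 and 0.0389 in the Preimmune IP.

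The percentile ranks in the AIN-2::GFP IP were 49.1, 64.5 and 29.7 for ant-1.1, 21.9, 31.1 and 11.3 for ant-1.3, and 53.1, 62.7 and 41.5 for mai-1. In the GFP IP they were 33.7, 20.9 and 57.5 for ant-1.1, 34.5, 12.2 and 38.2 for ant-1.3, and 41.4, 60.1 and 28.0 for mai-1. The ranks of these IPs overlapped for every gene, with 3.2% to 19.7% of the ranked features at or below 0 in AIN-2::GFP samples and 6.04% to 32.9% in GFP samples. None of the 3 genes had a mean rank above the middle of the list in any IP, except mai-1 in the AIN-2::GFP IP, at 52.4 ± 10.6 (SD, n = 3).

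**Figure D3:**
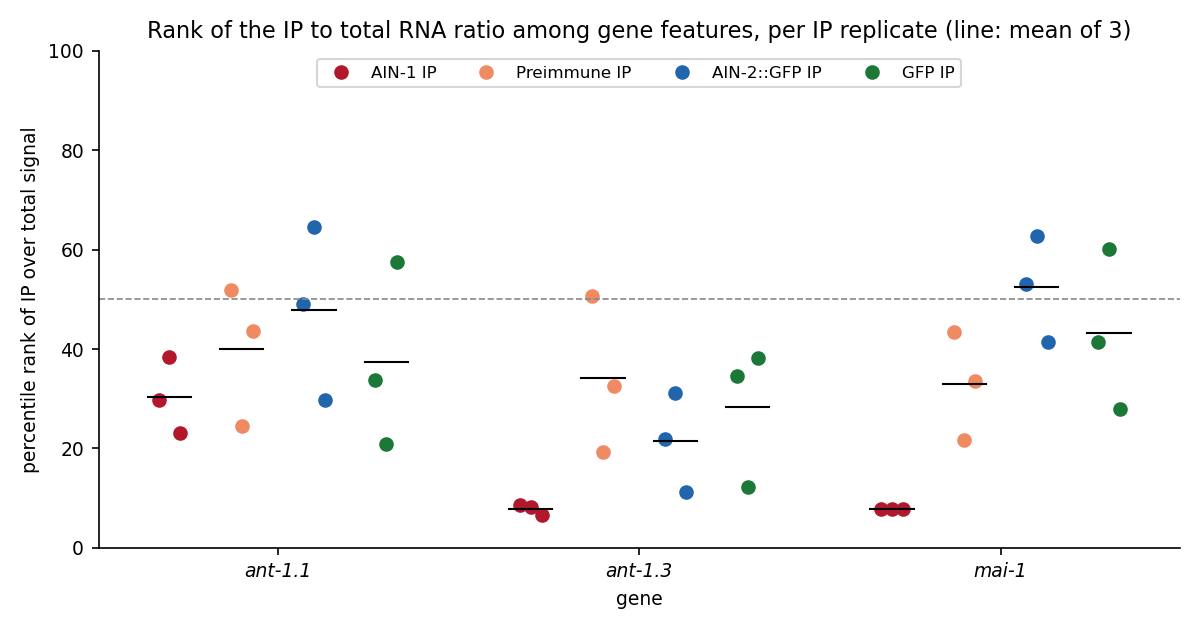
Percentile rank of the IP to total RNA ratio among gene features (y axis, 0 to 100) in each IP replicate, with the mean of 3 as a line, for ant-1.1, ant-1.3 and mai-1. The AIN-1 points of ant-1.3 and mai-1 sit between 6.56 and 8.59; the Preimmune points are on arrays where 18.8% to 50.3% of features were at or below 0, so heights cannot be compared between these IPs.

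Other members of the carrier family were measured too. ant-1.4 (T01B11.4), another ADP/ATP carrier gene, has 2 features. The brighter had 0.548, 0.302 and 0.498 sample means in the AIN-1 IP, against 23.2 and 19.1 in N2 total RNA, and fell in the AIN-1 IP, with a log2 difference of -5.37 ± 0.75 (limma, adjusted p = 0.000588). The dimmer feature differed by -5.79 ± 1.16 (limma, adjusted p = 0.00569). In the Preimmune IP the brighter feature fell too, with a difference of -5.62 ± 0.75 against N2 (limma, adjusted p = 0.000434). In total RNA ant-1.4 had 7.21, 8.13 and 6.90 sample means in the AIN-2::GFP line and 3.59, 2.14 and 5.03 in the promoter GFP line, all below N2, with a transgenic minus N2 difference of -2.27 ± 0.67 that did not pass the test (limma, adjusted p = 0.12). The single feature of ant-1.2 (W02D3.6) was above the background limit in 0 of 20 samples and was not tested. The carriers of this family resemble each other in sequence, the spotted letters are a detail not given in the sources used here, and how far their spots share targets was not tested.

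mai-2, the mitochondrial IF1 homolog, was above the background limit in N2 total RNA and, unlike mai-1, in the AIN-1 IP. It had 1.91, 1.39 and 1.53 sample means in the AIN-1 IP replicates and 0.222, 2.23 and 1.81 with preimmune serum, against 10.9 and 11.1 in N2 total RNA. It fell in both, with log2 differences of -2.78 ± 0.81 in the AIN-1 IP (limma, adjusted p = 0.0371) and -3.07 ± 0.81 in the Preimmune IP (limma, adjusted p = 0.0239). The Preimmune call was lost without N2 replicate 1 (adjusted p = 0.111) or 2 (0.234) and with a term for the arrays that share bright cdc-42 and asp-6 spots (0.0569), in a range of 0.00903 to 0.0569 over the 7 alternatives. The AIN-1 call was lost when any 1 of its 5 samples was left out (adjusted p = 0.0779 to 0.23), and with the replicate number as a block it was 0.0518, in a range of 0.00258 to 0.0907 over the 7 alternatives. In total RNA mai-2 had 9.32, 7.36 and 9.53 sample means in the AIN-2::GFP line and 9.67, 8.32 and 11.1 in the promoter GFP line, so that transgenic and N2 worms overlapped, with a difference of -0.34 ± 0.72 (limma, adjusted p = 0.926).

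By start position in RefSeq, gpd-3, gpd-2 and mai-1 are neighbouring coding genes, an order that takes no account of the strand or of transcription. gpd-2 and gpd-3 code for glyceraldehyde-3-phosphate dehydrogenases of glycolysis and share an operon with mai-1. gpd-3 fell in the AIN-1 IP against N2 total RNA, with a log2 difference of -3.73 ± 0.63 (limma, adjusted p = 0.00182), with 1, 0.636 and 2.09 sample means in the AIN-1 IP against 14.8 and 16.4 in N2. gpd-2 did not, with 20.1, 16.1 and 25.3 sample means in the AIN-1 IP against 13.8 and 17.4 in N2 and a difference of 0.15 ± 0.73 (limma, adjusted p = 0.938). Its percentile ranks in the AIN-1 IP were 77.5, 74.8 and 80.3, while those of gpd-3 were 11.6, 11.4 and 16.7, next to mai-1 at 7.80.

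In the Preimmune IP gpd-3 fell against N2 total RNA too (limma, adjusted p = 0.000498), with 0.222 to 0.957 sample means. For gpd-3 the AIN-1 and Preimmune IPs did not differ past the threshold (limma, adjusted p = 0.325). Against the Preimmune IP, gpd-2 was higher in the AIN-1 IP by 2.12 ± 0.66 (limma, adjusted p = 0.0489). With the replicate number as a block, which pairs these samples, the difference was 2.11 ± 0.69 and not past the threshold (adjusted p = 0.0634, in a range of 0.0211 to 0.0966 over the 7 alternatives, and of 0.009 to 0.13 with 1 sample left out). In transgenic minus N2 total RNA gpd-3 differed by -2.36 ± 0.56 (limma, adjusted p = 0.0582) and gpd-2 by -1 ± 0.65 (limma, adjusted p = 0.591). Over the 20 samples the normalised values of mai-1 had a Pearson r of 0.807 with gpd-3 and 0.172 with gpd-2, and without the 2 N2 samples 0.591 and -0.085 (18 samples). gpd-2 and gpd-3 code for nearly identical proteins, and how far their spots can tell them apart was not tested.

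Of the 14 measured genes of ATP synthase, the enzyme that MAI proteins are named for and whose product the carriers export, 10 fell and 0 rose in the AIN-1 IP against N2 total RNA, where 5.65% of all features were lower, with a median log2 difference of -2.53 beside 0.11 over all features. atp-3, for the subunit that joins the stalk to the catalytic head, fell, with a difference of -3 ± 0.4 (limma, adjusted p = 0.000463), as did asb-2, for a b subunit of the stalk, with -4.35 ± 1.04 (limma, adjusted p = 0.0144), and atp-2, for the catalytic beta subunit, with -1.89 ± 0.46 (limma, adjusted p = 0.0161). atp-1, for the alpha subunit, differed by -0.66 ± 0.49, asg-1, for a g subunit, by 0.04 ± 1.09, and asb-1, the other b subunit gene, by 0.37 ± 0.61, none past the test. The count of 10 was 6 without AIN-1 IP replicate 1, 4 without replicate 2, 2 without N2 replicate 1 and 3 without N2 replicate 2. In the Preimmune IP 6 of the 14 fell, where 9.17% of all features did, with a median of -2.06 beside -0.41 over all features; this was 10 without Preimmune IP replicate 3, and 3 and 2 without N2 replicates 1 and 2.

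Of the same 14 genes 6 fell and 0 rose in the AIN-2::GFP IP against total RNA of the line, where 2.72% of all features were lower, with a median of -1.56 beside 0 over all features. They were atp-1 at -1.56 ± 0.43 (limma, adjusted p = 0.0482), atp-2 at -1.56 ± 0.41 (limma, adjusted p = 0.0374), atp-3 at -1.43 ± 0.36 (limma, adjusted p = 0.0283), atp-4 at -1.67 ± 0.46 (limma, adjusted p = 0.0461), R53.4 and R04F11.2. The count was 1 or 2 when any of the 6 samples was left out, and 2 in sample means without the quantile step. In the GFP IP 0 of the 14 passed the test, where 0.0164% of all features were lower, with a median of -0.49 beside -0.22. So few calls over all features leave a count of 0 uninformative. For the AIN-2::GFP enrichment minus the GFP enrichment 0 of the 14 passed too, where 0.0245% of all features were called. The median there was -1.02, beside 0.17 over all features. In transgenic minus N2 total RNA 0 of the 14 passed, with a median of -0.74 beside 0.16 over all features.

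**Figure D4:**
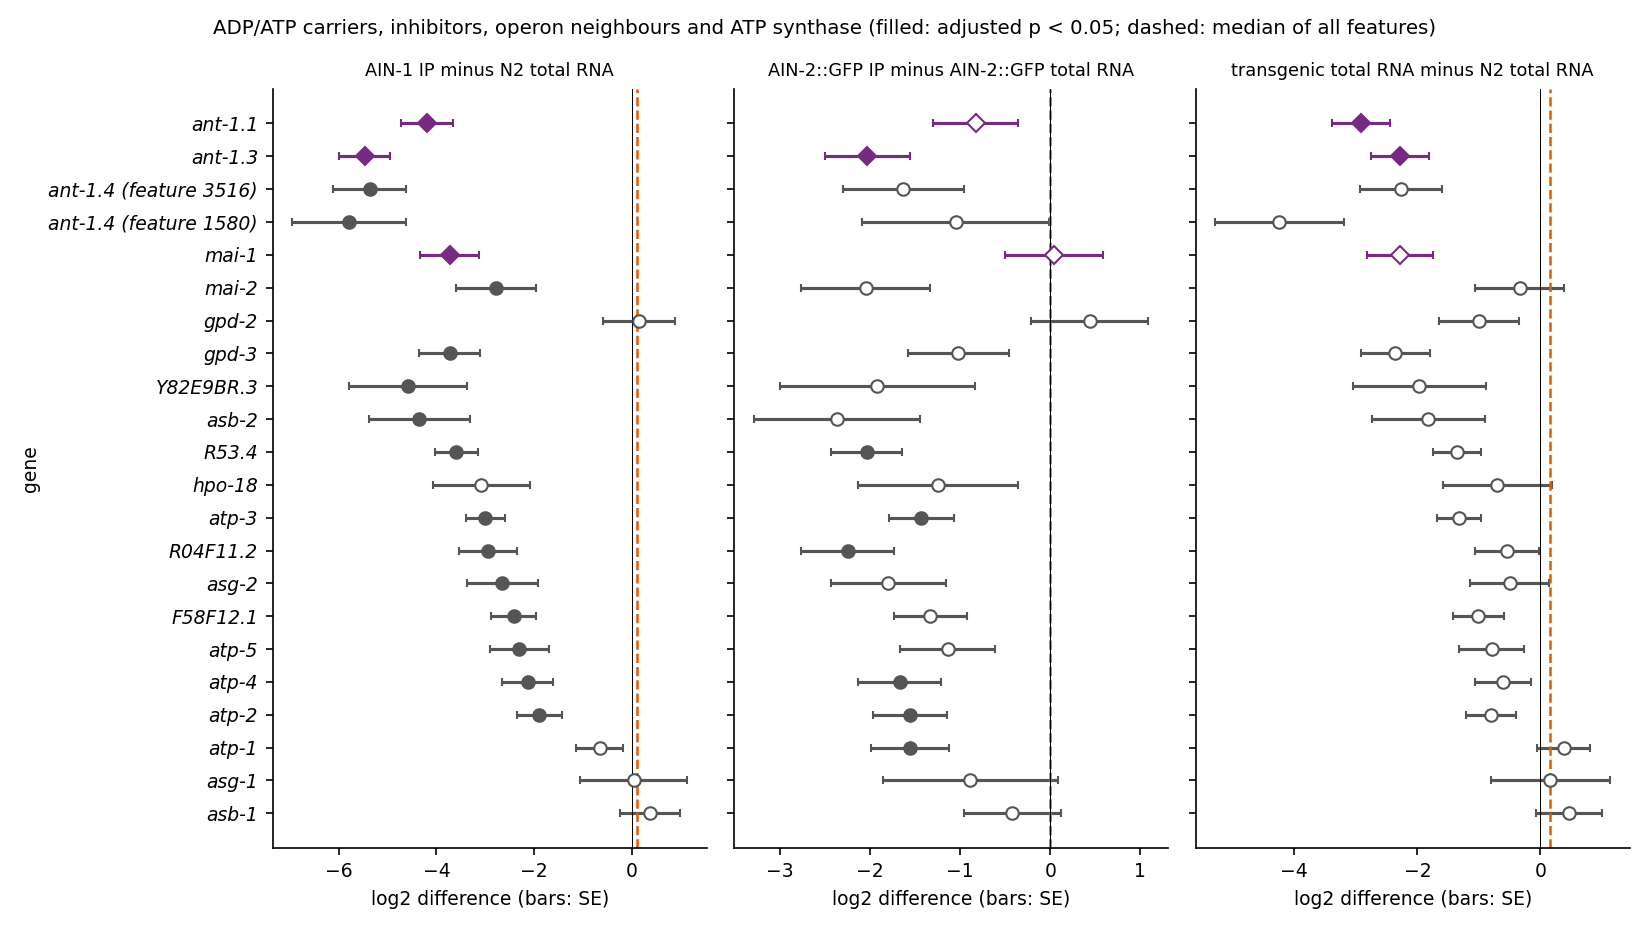
Log2 differences with SE (x axis) of the ADP/ATP carriers, the IF1 homologs, the operon neighbours of mai-1 and the ATP synthase genes (y axis) in 3 comparisons; ant-1.1, ant-1.3 and mai-1 are diamonds, filled symbols have an adjusted p under 0.05, and the dashed line is the median of all features. In the AIN-1 IP 10 of 14 ATP synthase genes are filled on the lower side while gpd-2, asb-1 and asg-1 lie near 0, and in transgenic against N2 total RNA the ATP synthase genes are open symbols. The mai-1 point of the AIN-1 IP rests on spots below the background limit.

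Further lists covered other mitochondrial tasks and glycolysis. Among 34 respiratory chain genes 9 fell and 0 rose in the AIN-1 IP against N2 total RNA, with a median of -1.71 beside 0.11 over all features, of which 5.65% were lower and 6.1% higher. They included nduf-7, for a subunit of complex I, at -3.78 ± 0.59 (limma, adjusted p = 0.00114) and cox-6A, for a cytochrome c oxidase subunit, at -3.54 ± 0.61 (limma, adjusted p = 0.00227). The AIN-2::GFP IP had 4 of the 34 lower than total RNA (median -1.57, beside 0 over all features, of which 2.72% were lower), among them cyc-2.1, for cytochrome c, at -2.81 ± 0.51 (limma, adjusted p = 0.00517) and cox-5B at -1.94 ± 0.38 (limma, adjusted p = 0.00783). Leaving out 1 sample gave 3 to 6 and 1 to 3 calls in these comparisons. Respiratory chain genes fell in the Preimmune IP against N2 total RNA too, 8 of the 34 (median -1.52), where 9.17% of all features did. AIN-1 minus Preimmune IP had a median of 0.08 for them, beside 0.42 over all features. There 2 of the 34 were lower, as were 2.36% of all features. Of 13 other mitochondrial carriers 3 fell in the AIN-1 IP (median -1.58) and 0 passed in the AIN-2::GFP IP (median -0.05). One of the 3, slc-25A18.1, was below the limit in all AIN-1 IP samples and at least 12.7-fold lower than in N2 (limma, adjusted p = 0.00486), and it fell in transgenic total RNA too, at least 12.4-fold (limma, adjusted p = 0.0115), although not without N2 replicate 2.

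In the tricarboxylic acid cycle 3 of 16 genes fell and 1 rose in the AIN-1 IP (median -0.73), the 1 that rose being near the 6.1% of all features. mdh-1, for a malate dehydrogenase, fell, with differences of -2.66 ± 0.45 in the AIN-1 IP (limma, adjusted p = 0.0019) and -2.11 ± 0.40 in the AIN-2::GFP IP (limma, adjusted p = 0.00629), where it was the only 1 of the 16 to pass, beside 2.72% of all features on the lower side. Of 13 glycolysis genes 3 fell in the AIN-1 IP (median -0.93), where 5.65% of all features were lower, and 0 passed in the AIN-2::GFP IP, with tpi-1, for triosephosphate isomerase, at -6.49 ± 0.97 in the AIN-1 IP (limma, adjusted p = 0.000849). Of 23 genes of mitochondrial import and shape 4 fell in the AIN-1 IP (median -1.31), led by timm-17B.1 of the inner membrane translocase at -2.34 ± 0.54 (limma, adjusted p = 0.0122). The Preimmune IP against N2 total RNA had falls too, where 9.17% of all features were lower. They were 4 of 13 other carriers, 4 of 16 cycle, 3 of 13 glycolysis and 4 of 23 import genes. Over the 7 alternatives these were 1 to 8, 3 to 6, 2 to 6 and 2 to 11. Medians of AIN-1 minus Preimmune IP were 0.64, 0.33, 0.74 and 0.17, beside 0.42 over all features. hsp-60, the mitochondrial chaperonin, fell in the AIN-2::GFP IP, at -2.07 ± 0.52 (limma, adjusted p = 0.0305), as 1 of the 23, where 2.72% of all features were lower. That call was lost after cyclic loess (adjusted p = 0.104), with the term for arrays with bright cdc-42 and asp-6 spots (0.0542), and in 5 of the 6 fits that left out 1 of its samples. With 1 sample left out, the calls in the AIN-1 comparison were 0 to 1 among the other carriers, 0 to 2 in the tricarboxylic acid cycle, 2 to 3 in glycolysis and 0 to 1 in import and shape.

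The 11 muscle marker genes moved with the AIN-1 comparison as well. Their summed signal was 23.5 to 28.4 sample means in AIN-1 IP samples, against 52.7 to 53.2 in N2 total RNA, and 4 of the 11 fell, with a median of -1.83, where 5.65% of all features were lower. The sum over 10 intestine genes was 245.4 to 297.8 in AIN-1 IP samples, against 397.3 to 407.2 in N2, and 3 of the 10 fell, with a median of -1.41. The hypodermis sum was 4.74 to 10.9 in AIN-1 IP samples, against 25.8 to 30.4 in N2, with 1 of 6 tested genes down. In the Preimmune IP against N2, 6 of 11 muscle, 5 of 10 intestine and 3 of 6 hypodermis genes fell, where 9.17% of all features did. Their medians were -2.39, -2.17 and -2.28. In the same comparison 3 of 6 neuron, 1 of 11 germline and 0 of 20 sperm genes fell, with medians of -1.99, -0.44 and -1.47. AIN-1 minus Preimmune IP had medians of 0.98, 0.52 and 1.01 for the muscle, intestine and hypodermis lists, beside 0.42 over all features. For sperm, germline and neuron lists they were 1.62, -0.84 and 0.49. Lower there were 3 of 11 germline and 1 of 20 sperm genes, where 2.36% of all features were. Higher were 2 of 20 sperm and 2 of 6 neuron genes, where 9.44% were. The sperm sum was 8.23 to 9.11 in the AIN-1 IP against 14.6 to 18.08 in N2. Even so, 2 of 20 tested sperm genes rose and 0 fell (median 0.17), where 6.1% of all features were higher. Germline sums overlapped, at 36.81 to 38.45 against 37.94 to 40.23, with 2 of 11 genes down (median -0.64). Neuron sums overlapped too, at 46.96 to 60.09 against 52.21 to 63.85, with 1 of 6 down (median -0.32). What these markers contribute to the carrier, inhibitor and ATP synthase values was not tested.

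Across the 20 samples, ant-1.1 and ant-1.3 had a Pearson r of 0.836 on the normalised log2 scale, ant-1.3 and mai-1 0.830, and ant-1.1 and mai-1 0.739. Without the 2 N2 samples these were 0.806, 0.679 and 0.353, so that the ant-1.1 and mai-1 relation rests largely on N2. The points share arrays, groups and normalisation, and the values describe these samples alone. Among 7066 named genes, the 5 most like ant-1.3 were mina-1 (r = 0.973), atp-3 (0.943), cpr-9, for a cathepsin B-like protease (0.933), and the collagen genes col-117 (0.932) and col-14 (0.929). They kept r of 0.873 to 0.957 over the 18 samples other than N2.

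The 5 most like ant-1.1 were mina-1 (r = 0.879), ncx-1, for a sodium/calcium exchanger (0.875), col-40 (0.862), cpi-1, for a cystatin-type protease inhibitor (0.861), and col-117 (0.859). Over the 18 samples without N2 they ranged from 0.418 for cpi-1 to 0.799 for mina-1. The 5 most like mai-1 were nssp-41 (r = 0.877), col-178 (0.873), col-13 (0.857), cpr-9 (0.851) and ram-2 (0.841), with 0.666 to 0.807 over the 18 samples.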

How the data were processed

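RNA of 20 samples was measured on spotted 2-dye arrays, with 1 dye per sample. The deposited values are linear spot intensity, with background subtracted and the sample's mean set to 1. Per the labels, 1 round of amplification came before labelling with either dye. The scaling was read from the values, which are whole multiples of 1 step per sample (100% within 0.001). The image software is not given in the sources used here. Identical samples were looked for and 0 pairs found.

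Intensities were quantile normalised, floored at the 10th percentile of positive values (0.0187 sample means; 32.9% of values), put on log2, and features of 1 gene with a mean above the 30th percentile (12222 of 17461) were tested with limma 3.58.1 (R 4.3.3; 7 group means and dye, all 20 samples, two-sided, Benjamini-Hochberg under 0.05). Figures used Python 3.11.15 and matplotlib 3.10.9. The fit was tested on simulated data. At least N-fold values count a dim group at its background limit. Where a gene has several features, the brighter stands for it in lists.

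The genes and lists were chosen with earlier results of these data known. Named were all genes of the carrier, inhibitor, operon and ATP synthase lists, up to 2 of every other list with the smallest adjusted p in the AIN-1 and AIN-2::GFP comparisons, and the 5 genes most like each of the 3. The text names the ones among these that the results turn on. The series text calls the replicates independent and biological, and p-values measure only the spread between the arrays at hand, whose number limits the precision. Replicate numbers come from the labels, which do not say what they share. Deviations from group means correlated over 0.1 in every same-numbered pair of AIN-1 and Preimmune IP (0.199 to 0.384) and of the 2 transgenic total RNA groups (0.591 to 0.769). The numbers were therefore taken to pair these samples, but not those of the other comparisons checked. The AIN-2::GFP and GFP IPs were not checked against each other. The reported SEs come from a fit without pairing. Scaling, floor, filter, dye, replicate block, array set and each sample left out in turn were varied.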

Additional observations from a re-analysis of the deposited data

How the results depend on the processing

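Over 24 differences of ant-1.1, ant-1.3 and mai-1 (3 genes, 8 comparisons), 7 alternatives gave 160 values on the same side of 0 and of the threshold, 4 that lost and 4 that gained a call, and 0 that changed sign past it; leaving out 1 sample gave 149, 13 and 0. In transgenic minus N2 total RNA, ant-1.1 was not called in sample means (-1.13) or after cyclic loess (-1.70), nor ant-1.3 (-1.90 and -2.12), and mai-1, at -2.28, was called without the filter, without the dye term and with an array set term. ant-1.3 was called in AIN-1 minus Preimmune IP after loess (-1.78). The cause of these changes was not tested. Leaving out 1 sample gave -3.79 to -2.13 for ant-1.1 and -2.74 to -1.84 for ant-1.3 in transgenic minus N2 total RNA, -2.30 to -1.84 for ant-1.3 in AIN-2::GFP IP minus total RNA, and -3.19 to -2.96 for mai-1 in Preimmune IP minus N2, the last not called without N2 replicate 2. The replicate block changed no call of the 3 genes, with -4.16 for ant-1.1, -5.45 for ant-1.3 and -3.79 for mai-1 in AIN-1 minus N2. In sample means mai-1 was -5.36 there and -4.12 in Preimmune minus N2. The array set holds samples whose cdc-42 and asp-6 spots were above the limit (all AIN-1 and Preimmune IPs, and the first replicate of each GFP antibody IP), a pattern found in an earlier look at these data.

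Of all features, 1437 were called in AIN-1 minus N2 (568 to 2052 over the alternatives, 278 to 882 with 1 sample left out) and 1597 in Preimmune minus N2 (935 to 2685 and 161 to 2618). The counts were 1443 in AIN-1 minus Preimmune IP (1416 to 1947 and 519 to 2497), 673 in AIN-2::GFP IP minus total RNA (576 to 769 and 222 to 388) and 127 in transgenic minus N2 (53 to 381 and 20 to 79). They were 3 in GFP IP minus total RNA (0 to 97 and 0 to 573; 1338 at an unadjusted p under 0.05), 3 for the difference of enrichments (0 to 44 and 0 to 146; 980) and 1 between the transgenic lines (1 to 2 and 0; 44). In AIN-1 minus N2, 691 were lower and 746 higher, against 1822 and 230 in sample means, where the median of all features moved to -1.02; in Preimmune minus N2, 1121 and 476 became 2408 and 277 in sample means and 723 and 633 after loess. ATP synthase calls ranged over the alternatives from 4 to 11 in AIN-1 minus N2, and the AIN-2::GFP IP had 2 to 8; respiratory chain calls ranged from 5 to 13 and from 4 to 8. Of 42 called values of the other named genes, 23 kept the call in all 7 alternatives and 15 with any 1 sample left out. Spots near the background limit, as those of mai-1 outside N2, bound how far differences can be read.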
